A study of Mus musculus with 13 samples.

Results

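The interferon response of whole mouse liver was described through 39 genes, the antiviral interferon-stimulated genes and the regulators of their pathway. They were chosen by symbol from the 22048 genes of the count table, with results of these data already known, so their values in the comparisons between groups are a description, and their counts of calls are printed beside the share of all genes called and support nothing. All 39 were found, and all 39 passed the filter on low counts among the 13831 genes tested. The data are 13 whole-liver libraries in 3 groups, called livers here although the labels do not say that each came from a separate animal. The 6 control livers kept their hepatic stellate cells, which line the sinusoids and store vitamin A (replicates 1, 2 and 6 male, replicates 3, 4 and 5 female). A further 4 livers, 1 labelled male (replicate 3) and 3 female, had been depleted of these cells. The last 3, with stellate cells in place, were taken 72 h after partial hepatectomy, an operation that removes part of the organ (replicates 1 and 2 male, replicate 3 female). Strain, age, the method and timing of the depletion and a sham operation are not given in the sources used here.

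Interferons are secreted signalling proteins of antiviral defence. Many cell types release type I interferons, the alpha forms and beta, on sensing foreign nucleic acid, whereas interferon gamma, the type II form, comes mainly from activated T and NK cells. Type I interferons signal through a receptor of IFNAR1 and IFNAR2, and interferon gamma through IFNGR1 and IFNGR2. Type I signalling brings a complex that holds STAT2 and IRF9 to the interferon-stimulated response element (ISRE) of target promoters, and interferon gamma acts through the gamma-activated sequence (GAS). The targets include enzymes and binding proteins that block viral replication, sensors and transcription factors that amplify the response, and inhibitors that end it. In liver, hepatocytes and the resident macrophages (Kupffer cells) both respond to these signals.

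Promoter sequences show where the elements of the pathway lie in these genes. RefSeq windows of 300 bases on GRCm38, 250 before and 50 after a start, were present for 30 of the 39 members, as 35 windows. Dhx58, Usp18, Oas2, Mx1, Mx2, Parp9, Parp14, Rtp4 and Ifi27 had none. The ISRE core GAAANNGAAA, searched on both strands, occurred in 12 of the 35 member windows (34.3%) and in 3.44% of all 32851 windows of that length. The GAS core TTCNNNGAA, which reads the same on both strands, occurred in 9 member windows (25.7%) and in 8.3% of all windows. Of the 30 members, 3 held both cores and 12 held neither. The stretches below, each of 60 bases and written 5′ to 3′ on the strand of the gene, are shown because they belong to genes whose levels are described further on. Capitals mark every ISRE or GAS core in the stretch, and TTTCNNTTTC is the ISRE core on the opposite strand.
Isg15 (chr4:156200856-156200915, minus strand): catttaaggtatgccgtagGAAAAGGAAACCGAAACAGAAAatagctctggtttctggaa
Socs1 (chr16:10785582-10785641, minus strand): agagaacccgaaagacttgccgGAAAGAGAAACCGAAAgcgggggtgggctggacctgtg
Oas1a (chr5:120907508-120907567, minus strand): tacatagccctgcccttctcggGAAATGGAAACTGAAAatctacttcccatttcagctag
Oas3 (chr5:120777700-120777759, minus strand): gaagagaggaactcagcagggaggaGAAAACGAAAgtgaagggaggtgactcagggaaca
Ifit1 (chr19:34640769-34640828, plus strand): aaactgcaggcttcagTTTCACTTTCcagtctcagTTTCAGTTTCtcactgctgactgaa
Ifit3 (chr19:34583365-34583424, plus strand): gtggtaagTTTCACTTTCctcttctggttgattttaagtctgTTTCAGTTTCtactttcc
Rsad2 (chr12:26456538-26456597, minus strand): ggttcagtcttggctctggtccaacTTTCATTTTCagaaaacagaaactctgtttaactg
Stat2 (chr10:128270251-128270310, plus strand): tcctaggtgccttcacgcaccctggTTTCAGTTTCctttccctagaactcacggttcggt
Bst2 (chr8:71537565-71537624, minus strand): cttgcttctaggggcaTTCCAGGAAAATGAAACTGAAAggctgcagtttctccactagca
Irf1 (chr11:53769898-53769957, plus strand): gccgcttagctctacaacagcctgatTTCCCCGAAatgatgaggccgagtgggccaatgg
Samhd1 (chr2:157135287-157135346, minus strand): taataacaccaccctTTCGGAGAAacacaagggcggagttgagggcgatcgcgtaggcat
Ifit2 (chr19:34550444-34550503, plus strand): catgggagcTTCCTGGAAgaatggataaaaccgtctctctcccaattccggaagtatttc
Isg15 held 3 overlapping ISRE cores, Socs1 and Oas1a 2 overlapping ones, and Ifit1 and Ifit3 2 separate ones. In Bst2 a GAS core ran into 2 overlapping ISRE cores. The first ISRE base lay 78 bases before the start in Isg15, 83 in Socs1 and 104 in Ifit1. Irf1, Samhd1 and Ifit2 held a GAS core and no ISRE core in this window. A match is a run of letters and no evidence that a factor is bound there.

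In control liver the members covered a wide range of levels per length, given as FPKM (CPM divided by the deposited gene length in kilobases, where CPM is counts scaled to library size). Bst2, the membrane protein tetherin that holds budding virus on the cell, stood highest at 145 ± 20.7 FPKM (SD, n = 6). Ifi27, a mitochondrial interferon-induced protein, followed at 49.4 ± 22.7, and the secreted glycoprotein Lgals3bp at 28.0 ± 5.46. The ubiquitin ligase Trim25 (16.9 ± 2.12) and the transcription factor Irf7 (16.0 ± 4.04) did not differ beyond their SDs. At the low end stood Oas2 at 0.575 ± 0.227, Mx1 at 0.361 ± 0.0913, Oas3 at 0.276 ± 0.155 and Socs1 at 0.199 ± 0.116, of which the last 3 overlapped within their SDs. Together the members took 0.0825% to 0.144% of the counts of a control library, 0.186% to 0.326% of a depleted one and 0.0839% to 0.0898% of a hepatectomised one.

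Library totals were 35360991 to 51008737 counts, and 3 counts corresponded to 0.0524 to 0.0900 CPM after TMM scaling. All 8 stellate cell markers were called lower in depleted livers, where their summed level was 1.87 to 48.3 CPM against 207 to 594 in controls. Depleted replicate 4 held most of what remained, with Dcn at 23.2 CPM against 0.507 to 1.86 in the other 3 depleted livers. Control replicate 6 and hepatectomised replicate 2 stood apart in markers of several non-hepatocyte cell types. Summed Kupffer cell markers were 52.3 CPM in control replicate 6 against 312 to 465 in the other controls, sinusoidal endothelial markers 63.7 against 202 to 292, and stellate cell markers 207 against 369 to 594. In hepatectomised replicate 2 the same 3 sums were 58.3, 63.9 and 256 CPM, each below those of the other hepatectomised livers (243 and 677, 149 and 197, and 401 and 450). Reads were counted per gene in bulk tissue, in which fewer cells of a type and less RNA per cell cannot be told apart.

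In livers depleted of stellate cells, most of the antiviral genes, their transcription factors and both inhibitors stood above control. Socs1 differed most, at 57.4-fold over controls that held 5 to 20 counts per library. Samhd1 followed at 9.76-fold and Oasl2 at 7.92-fold, while Bst2, Ddx58, Eif2ak2, Ifih1, Ifi27, Trim25 and Ifnar1 overlapped with control and were not called. In all, 32 of the 39 members were called higher than in control and 0 lower by edgeR's quasi-likelihood test at a Benjamini-Hochberg adjusted p-value of 0.05, with sex in the model. Among all genes tested, 18.9% were called higher and 15.0% lower. With libraries scaled to their total alone these shares were 20.9% and 10.6%, and the same number of members was called. The median log2 fold change of the members was 1.49, against -0.03 for all genes, and 25 members were called with at least a 2-fold difference. CPM ranges of the 2 groups lay apart, depleted above control, for 27 members (16.5% of all genes), and for 0 members the other way (11.9% of all genes). Since the members were chosen with this contrast known, nothing is read from the counts. The following paragraphs give the members by role, with fold changes on the log2 scale ± SE and CPM scaled by TMM factors. Their counts of calls, for members, pathway genes and markers, stand beside the same shares of all genes, 18.9% higher and 15.0% lower.

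**Figure D1:**
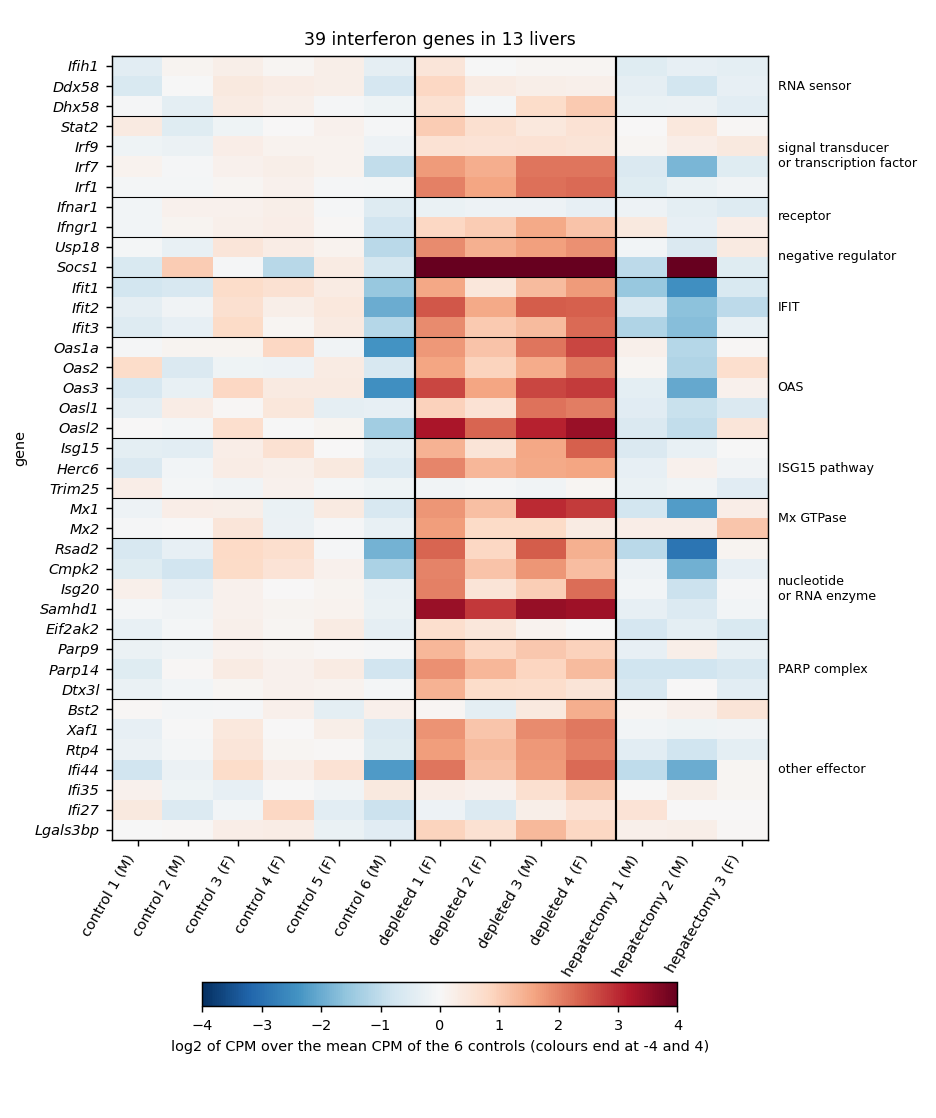
Each row is 1 of the 39 genes, grouped by role, and each column 1 of the 13 livers; colour gives the log2 of the liver's CPM over the mean CPM of the 6 controls. Most rows are red in all 4 depleted livers, Trim25, Ifnar1 and Ifi27 are near white there, and control 6 and hepatectomy 2 hold most of the dark blue cells.

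Ligands were examined first, from a list of 21 interferon genes. Ifng, which encodes interferon gamma, was the one gene of this list that passed the filter on low counts. It had 0, 0, 1, 1, 3 and 0 counts in control replicates 1 to 6 and 29, 15, 134 and 145 in the depleted livers. Every depleted liver lay above every control. In hepatectomised livers it had 0, 0 and 1 counts. Ifng thus passed the filter through the depleted livers alone, where it is high, so these counts are a description and no test is given. The other 20 ligands, the alpha forms, Ifnb1 and the lambda forms among them, summed to 7 counts over all 13 libraries, 6 of Ifnk and 1 of Ifna2, and 18 of them were at 0 in every library. A count of 0 allows up to 3 counts in a library, or 0.0524 to 0.0900 CPM, for counting error only. The alpha forms are near-identical to each other and the handling of multi-mapped reads is not given. Trex1, a DNase of most cell types, was likewise listed at 0 counts in all 13 libraries, so a 0 in this table does not show that a transcript was absent.

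Of the 2 receptor chains among the members, 1 was called. Ifnar1, a chain of the type I receptor (chromosome 16, 91485238 to 91507441), had 31.0 to 52.0 CPM (median 46.1) in controls and 37.3, 38.5, 38.2 and 35.1 in depleted replicates 1 to 4. The ranges overlapped, and the difference of -0.27 ± 0.14 was not called, though it was called lower without control replicate 6 (-0.33). Ifngr1, the ligand-binding chain of the gamma receptor (chromosome 10, 19591949 to 19610229), had 13.3 to 27.8 CPM (median 24.2) in controls and 40.2, 46.0, 64.8 and 50.1 in depleted livers. Every depleted liver was above every control, with a difference of 1.13 ± 0.21. Of 7 further receptor chains and kinases, 4 were called higher and 0 lower. They were Ifnar2 (0.39 ± 0.13, adjusted p = 0.0316), Ifngr2 (0.59 ± 0.16, adjusted p = 0.0143), the shared cytokine receptor chain Il10rb and the kinase Jak2.

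All 4 transcription factors among the members were called higher, and their ranges lay apart from control. Irf1, a transcription factor and an early target of interferon gamma (chromosome 11, 53770014 to 53778374), had 41.0 to 49.1 CPM (median 42.1) in controls and 174, 131, 202 and 207 in depleted livers. The difference was 2.02 ± 0.13, and the controls spanned less than the gap to the lowest depleted liver. Irf7, which drives type I interferon genes once activated (chromosome 7, 141262706 to 141266481), had 24.6 to 57.1 CPM (median 53.7) in controls and 159, 133, 213 and 214 in depleted livers, a difference of 1.86 ± 0.27. Control replicate 6 was the lowest control for Irf7 at 24.6 CPM. Stat2 and Irf9, which act in the type I complex, differed less. Stat2 had 34.9 to 62.0 CPM (median 48.2) in controls and 99.0, 76.0, 65.2 and 72.3 in depleted livers, a difference of 0.67 ± 0.17. Irf9 had 26.1 to 37.2 CPM (median 30.5) and 46.4, 45.1, 45.9 and 43.5, with the depleted livers within 43.5 to 46.4 CPM and a difference of 0.51 ± 0.10. Irf7 and Phrf1, and Irf1 and the predicted gene Gm17334, overlap in exons on opposite strands, and Irf9 overlaps Rnf31 on the same strand. The strand setting of the counting is not given, so whether reads of these pairs were told apart is not known. Of 5 further factors tested, 3 were called higher: Irf5, Irf8 and Batf2. Irf3, which acts upstream of interferon beta and is controlled mainly by phosphorylation, differed by -0.20 ± 0.15 (adjusted p = 0.313).

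The 3 RNA sensors had a median log2 fold change of 0.34, and 1 of them was called. Ifih1, which encodes the long double-stranded RNA sensor MDA5 (chromosome 2, 62595798 to 62646255), had 35.4 to 55.2 CPM (median 50.6) in controls and 66.6, 47.1, 50.4 and 50.05 in depleted livers, a difference of 0.13 ± 0.14. Ddx58, which encodes RIG-I (chromosome 4, 40203773 to 40239828), had 22.4 to 46.8 CPM (median 38.6) and 62.8, 44.6, 42.0 and 41.3, a difference of 0.34 ± 0.17. Neither was called, both ranges overlapped, and depleted replicate 1 was the highest liver for both. Dhx58, the related regulator LGP2, was called at 0.61 ± 0.20, with a range of 7.91 to 13.2 CPM (median 10.04) in controls and of 9.81 to 21.5 CPM in depleted livers. Its call was lost when any 1 of control replicates 1, 2, 5 and 6 or depleted replicates 1, 3 and 4 was left out, with log2 fold changes of 0.46 to 0.63. Of 13 sensors and adaptors tested outside the members, 11 were called higher and 1 lower, where 18.9% of all genes were called higher and 15.0% lower. Zbp1, a sensor of Z-form nucleic acid, differed by 3.70 ± 0.27 (adjusted p = 2.83e-06), and Tmem173, which encodes the DNA-sensing adaptor STING, by 2.99 ± 0.29 (adjusted p = 1.46e-05). Mavs, the adaptor that MDA5 and RIG-I share, was the gene called lower. It had 70.6 to 107 CPM in controls and 68.9, 79.9, 47.7 and 55.7 in depleted livers (-0.62 ± 0.14, adjusted p = 0.00429).

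Both inhibitors among the members were called higher. Socs1, which binds and blocks Janus kinases (chromosome 16, 10782240 to 10785536), had the largest difference of the 39. Controls held 0.112 to 0.494 CPM (median 0.198), which is 5 to 20 counts per library, and depleted livers 11.5, 4.21, 19.3 and 13.2 CPM, from 188 to 1107 counts. The lowest depleted liver exceeded the highest control, and the fitted difference of 5.84 ± 0.85 corresponds to 57.4-fold. Socs1 did not pass the filter among controls alone. Usp18, which removes ISG15 from proteins and blocks the IFNAR2 chain (chromosome 6, 121245906 to 121270917), had 7.02 to 20.7 CPM (median 15.1) in controls and 54.8, 39.5, 45.5 and 52.6 in depleted livers, a difference of 1.63 ± 0.20. Of 10 further negative regulators tested, 6 were called higher and 0 lower, led by the ubiquitin-editing enzyme Tnfaip3 (3.05 ± 0.19, adjusted p = 6.26e-07) and the phosphatase Ptpn6 (1.78 ± 0.16, adjusted p = 9.19e-06).

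All 5 OAS members were called higher with ranges apart. OAS proteins bind double-stranded RNA, and several of the family make the messenger that activates RNase L. Oasl2 (chromosome 5, 114896936 to 114912234) had 2.52 to 10.5 CPM (median 6.67) in controls and 63.5, 33.2, 55.4 and 71.8 in depleted livers, a difference of 2.99 ± 0.31. Oas3 (chromosome 5, 120753098 to 120777661) had 0.360 to 3.45 CPM (median 2.06) and 12.3, 5.82, 12.5 and 13.4, a difference of 2.49 ± 0.44. Oas1a, Oasl1 and Oas2 differed by 1.97 ± 0.45, 1.59 ± 0.30 and 1.49 ± 0.37. Oas1a has a near-identical neighbour, Oas1g, with which reads could be shared. The call of Oas2 was lost without depleted replicate 3 (1.41).

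IFIT proteins bind viral RNA and translation factors, and all 3 members were called higher. Ifit2 (chromosome 19, 34550694 to 34576419) had 1.59 to 9.80 CPM (median 6.55) in controls and 35.4, 18.2, 33.7 and 33.2 in depleted livers, a difference of 2.23 ± 0.36. Ifit3 (chromosome 19, 34583531 to 34588731) had 7.65 to 28.8 CPM (median 15.7) and 63.0, 34.97, 41.0 and 80.3, a difference of 1.55 ± 0.24. Ifit1 (chromosome 19, 34640871 to 34650009) had 4.56 to 21.7 CPM (median 12.5) and 38.9, 18.1, 31.9 and 43.1, a difference of 1.29 ± 0.32. Ifit2 and Ifit3 had ranges apart, whereas depleted replicate 2 at 18.1 CPM lay below the highest controls for Ifit1. Without depleted replicate 3, the single male of its group, the difference of Ifit1 was 0.81 and not called. Ifit3 has a near-identical neighbour and Ifit1 has related ones, with which reads could be shared.

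Samhd1, which breaks down the nucleotides that viruses need for DNA synthesis (chromosome 2, 157097533 to 157135265), had the smallest SE relative to its difference of the 39. It had 20.8 to 28.4 CPM (median 25.6) in controls and 277, 178, 285 and 263 in depleted livers, a difference of 3.29 ± 0.15 or 9.76-fold. The depleted livers thus lay far above the whole control range. Rsad2, the enzyme viperin, had 2.46 to 15.8 CPM (median 8.01) in controls and 45.2, 16.0, 48.6 and 24.1 in depleted livers, a difference of 1.95 ± 0.51. Its ranges lay apart by a narrow margin, 15.8 CPM in control replicate 3 against 16.0 in depleted replicate 2. Without depleted replicate 3 it was 1.06 and not called. Cmpk2, a nucleotide kinase next to Rsad2 on chromosome 12, differed by 1.57 ± 0.36 and lost its call in the same way (1.10). Isg20, an RNA exonuclease, differed by 1.48 ± 0.32. Eif2ak2, the double-stranded RNA-activated kinase PKR, had 18.6 to 30.02 CPM (median 23.9) in controls and 37.7, 32.8, 26.2 and 23.4 in depleted livers. These ranges overlapped and the difference of 0.27 ± 0.15 was not called, except when depleted replicate 4 was left out (0.38).

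Isg15, the ubiquitin-like protein that is conjugated to others during the response (chromosome 4, 156199424 to 156200818), had 7.41 to 15.1 CPM (median 8.85) in controls and 26.0, 14.2, 29.0 and 52.4 in depleted livers. The difference was 1.54 ± 0.28, and depleted replicate 2 lay within the control range. In female libraries alone its difference was not called, as for 8 other members named below. Herc6, the mouse ligase that attaches ISG15, differed by 1.56 ± 0.18 with ranges apart. Trim25, which modifies RIG-I, had 85.6 to 116 CPM (median 92.4) in controls and 89.0, 93.2, 88.5 and 103 in depleted livers, and its difference of -0.05 ± 0.12 was not called. Mx1 (chromosome 16, 97447035 to 97462907), a GTPase that traps influenza nucleoproteins, had 0.840 to 1.69 CPM (median 1.34) and 4.46, 3.05, 10.5 and 9.07, a difference of 2.35 ± 0.44. Mx2 (chromosome 16, 97535308 to 97560900), annotated as a polymorphic pseudogene, had 5.49 to 9.49 CPM (median 6.57) and 21.6, 11.5, 11.6 and 8.55. Its difference of 0.88 ± 0.25 lost its call without depleted replicate 1 (0.61) or depleted replicate 3 (0.83). The PARP complex of Parp9, Parp14 and Dtx3l, which modifies proteins with ADP-ribose and ubiquitin, was called higher in all 3 members, at 1.04 ± 0.15, 1.24 ± 0.17 and 0.83 ± 0.18. Parp9 and Dtx3l share exon sequence on opposite strands of chromosome 16. The strand setting of the counting is not given, so their values may not be independent.

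Of the remaining 7 effectors, 5 were called higher. They were Ifi44 (1.81 ± 0.37), Xaf1 (1.74 ± 0.20), Rtp4 (1.65 ± 0.17), Lgals3bp (0.94 ± 0.17) and Ifi35 (0.64 ± 0.18, or 0.42 without depleted replicate 4). The members with the highest control levels, Bst2 and Ifi27, were not called. Bst2 had 85.3 to 128 CPM (median 110.1) in controls and 116, 85.5, 145 and 303 in depleted livers, where replicate 4 stood above the other 3. Ifi27 had 40.1 to 128 CPM (median 60.7) and 62.4, 49.2, 84.6 and 106, with a difference of 0.04 ± 0.33. Both ranges overlapped with control.

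**Figure D2:**
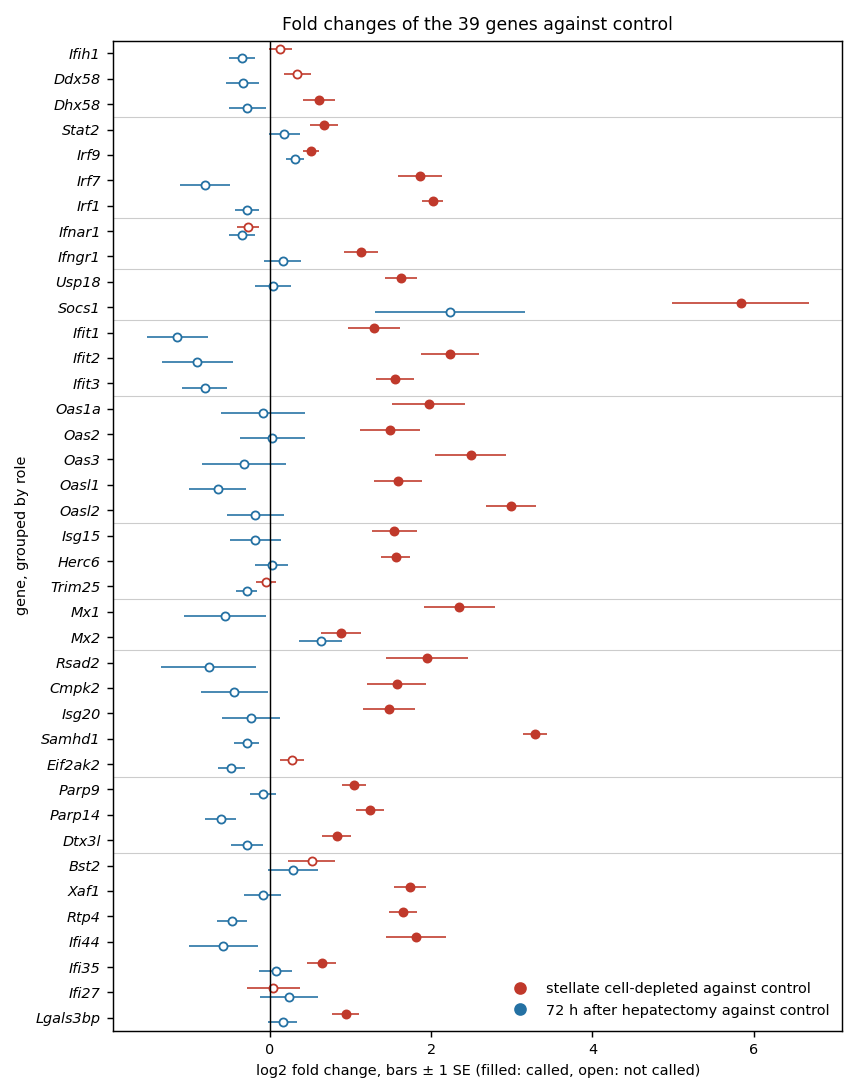
Points are log2 fold changes against the 6 controls for the 39 genes, grouped by role, with bars of 1 SE; red is depleted, blue is 72 h after hepatectomy, and filled points were called. Red points are filled for 32 genes and reach 5.84 for Socs1, and no blue point is filled.

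The depleted livers were not uniform. Replicate 2 was the lowest of its group for 29 of the 39 members, with a summed level of 1874 CPM against 2519 to 2747 in the other 3. Replicate 4 was the highest for 18 members, among them Irf1, Irf7, Ifit1, Ifit3, Isg15, Bst2 and 4 of the 5 OAS genes. Replicate 1 was the highest for 13 members, among them Ifih1, Ddx58, Stat2, Irf9, Parp9, Parp14, Dtx3l and Eif2ak2, of which Ddx58, Irf9, Dtx3l and Eif2ak2 were lowest in replicate 4. Replicate 3, the male, was the highest for 7, among them Socs1, Mx1, Rsad2 and Samhd1. The libraries thus differed in which members stood highest as well as in their level. With the 3 female depleted and 3 female control libraries alone, 9 of the 32 calls were lost, those of Dhx58, Irf9, Ifit1, Oasl1, Isg15, Mx2, Rsad2, Dtx3l and Ifi35, at log2 fold changes of 0.37 to 1.32. Calls over all genes fell as well, from 2614 of 13831 higher with all libraries to 1834 of 13444. Dhx58 also lost its call with the replicate number as a block (0.58).

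The 4 depleted livers also differed from control in markers of immune cells. Summed levels of 6 monocyte and neutrophil markers were 212 to 534 CPM against 2.79 to 10.6, and all 6 were called higher. Summed T and NK cell markers were 31.3 to 77.2 CPM against 2.41 to 3.95, with 6 of 6 called higher, and B cell markers 22.2 to 40.4 against 3.45 to 6.38, with 4 of 4. Among the T and NK cell markers, Cd8a was at 0.0536 to 0.294 CPM outside the depleted livers, near the filter on low counts, so its call is a description. Of 6 Kupffer cell markers 3 were called higher and 0 lower, and the sum of the 6 was 570 to 1288 CPM against 52.3 to 465. They did not move together: Clec4f was at 0.236, 2.17, 3.44 and 69.5 CPM in depleted replicates 1 to 4 against 20.4 to 165 in controls, and Vsig4 was at 13.1 to 29.1 against 6.27 to 50.9. The sum of 6 plasmacytoid dendritic cell markers was 73.4 to 130 CPM against 15.1 to 28.4. Irf8, which monocytes and B cells also express, made up most of that sum in depleted livers, at 50.5 to 107 CPM there and 2.46 to 9.08 in controls. Ccr9 was at 0.847 to 2.11 CPM against 0 to 0.222, while Siglech, the defining gene of these interferon-producing cells, was at 0.0349 to 0.223 against 0.0900 to 0.854. After hepatectomy Ccr9 was at 0.0561 to 0.176 CPM, so it passed the filter on low counts through the depleted livers, where it is high. Calls of this list are therefore not given. Siglech lay below the level of 3 counts in depleted replicates 1 to 3. The 6 hepatocyte markers had 0 calls. No marker list had a gene at 0 in every library of a group. Depleted replicate 4, with the most Clec4f of its group, was also the highest of the group for 18 members. The part of these cells in the levels of the 39 members was not tested.

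**Figure D3:**
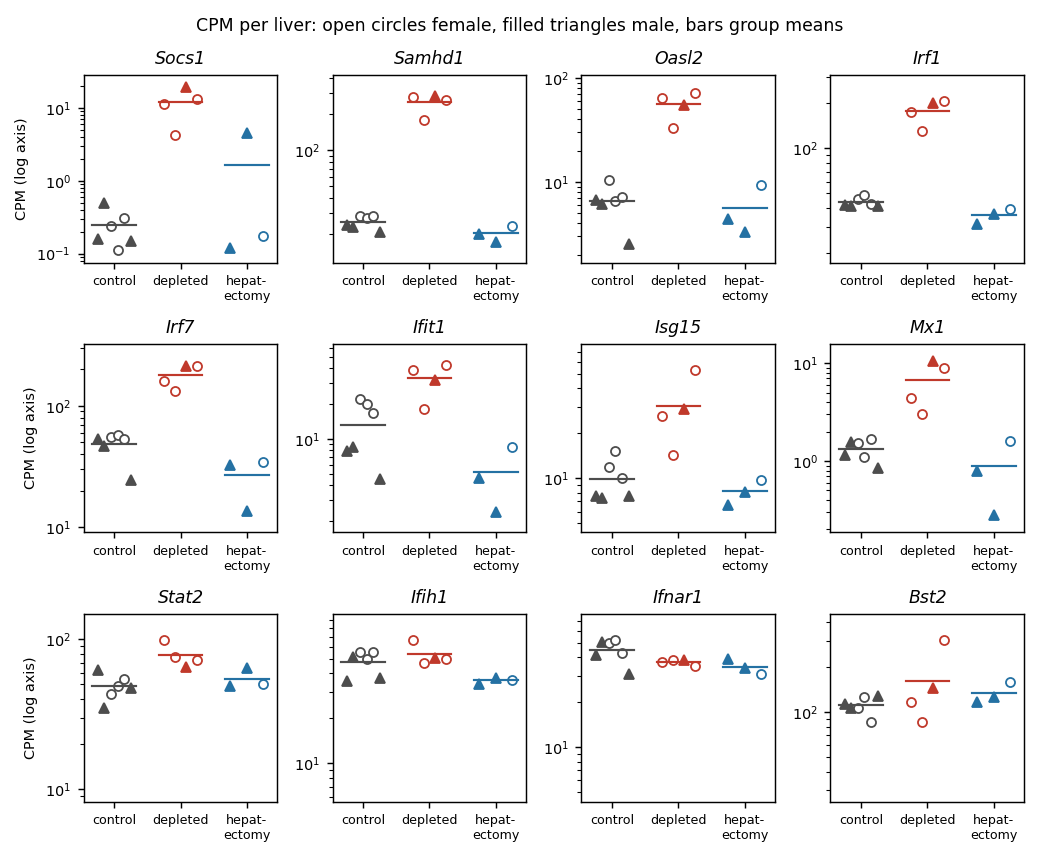
Each point is 1 liver, with CPM on a log axis whose range differs between panels; open circles are female, filled triangles male, and bars are group means. For Socs1, Samhd1, Oasl2, Irf1, Irf7, Mx1 and Stat2 all 4 depleted livers lie above all 6 controls, while Ifih1, Ifnar1 and Bst2 overlap.

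In depleted livers, members with an ISRE core in the window had a median log2 fold change of 1.42, with 8 of 12 called higher, and members without one a median of 1.56, with 16 of 18 called higher, where 18.9% of all genes were. With a GAS core the median was 1.48 over 9 members, and without one 1.55 over 21. The 4 members with an ISRE core that were not called were Bst2, Ddx58, Eif2ak2 and Ifih1. In Ddx58, Eif2ak2 and Ifih1 the ISRE core began after the RefSeq start, and in the 8 called members and Bst2 its first base lay 20 to 222 bases before it. The first bases after the start lay in an annotated transcript of the gene for 26 of the 35 windows. Those of Oas1a (20), Stat2 (222), Bst2 and Ifit3 did not, so these distances hold for the RefSeq start alone. These are descriptions of a chosen list and were not tested.

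At 72 h after partial hepatectomy, 0 of the 39 members were called in either direction by edgeR, while 6.06% of all genes were called higher and 2.36% lower. At an unadjusted p-value under 0.05 there were 9 members lower and 3 higher, where 11% of all genes were lower and 13.3% higher. DESeq2 called 2 members lower, Ifit1 and Parp14, and 4.86% of all genes lower. The median log2 fold change was -0.28, against -0.02 for all genes, with 27 members fitted lower and 12 higher. With libraries scaled to their total alone, the median of all genes moved to -0.24, that of the members to -0.49, and 7 members were called lower, where 11.3% of all genes were called lower and 4.53% higher. Ranges lay apart with hepatectomy below control for 3 members, Oasl1, Eif2ak2 and Irf1 (6.25% of all genes), and above control for 0 (7.41% of all genes). The comparison uses the same controls as the one above.

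The lowest fold changes after hepatectomy were those of the IFIT genes, Irf7 and Rsad2. Ifit1 had 4.59, 2.39 and 8.55 CPM in replicates 1 to 3, a difference of -1.15 ± 0.38 from the control values above. It was called lower with the replicate number as a block (-1.34) and in a fit of the 2 groups alone (-1.05). Ifit2 had 4.06, 2.02 and 3.09 CPM (-0.90 ± 0.44), and Ifit3 7.32, 5.22 and 13.6 CPM (-0.81 ± 0.28). In all 3 genes at least 1 hepatectomised liver lay within the control range. Irf7 had 32.8, 13.7 and 34.7 CPM (-0.81 ± 0.31), and Rsad2 4.29, 1.21 and 9.78 CPM (-0.76 ± 0.59). Replicate 2 was the lowest of the 3 livers for these 5 genes and for 23 of the 39 members in all. It was also the liver with low sums of Kupffer cell, endothelial and stellate cell markers, whose part was not tested, and without it the difference was -0.52 for Irf7 and -0.35 for Rsad2, whereas that of Rsad2 was -1.36 without hepatectomised replicate 3. Without control replicate 6, Ifit2 (-1.16), Parp14 (-0.72) and Ifnar1 (-0.46) were called lower, and without depleted replicate 2, a library of the same fit, Ifit1 (-1.12) and Ifit3 (-0.79).

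At the other end, Socs1 had 0.118, 4.60 and 0.175 CPM, so that replicate 2, with 164 counts, exceeded the lowest depleted liver while replicates 1 and 3 had 4 and 7 counts. Its difference of 2.23 ± 0.93 became -0.68 without replicate 2. Mx2 had 8.17, 8.17 and 14.6 CPM (0.63 ± 0.27), with replicate 3 highest. Irf9 had 32.7, 37.3 and 40.8 CPM (0.31 ± 0.11). Bst2 had 117, 127 and 159 CPM (0.28 ± 0.31), and Ifi27 had 107, 73.0 and 73.4 CPM (0.24 ± 0.36). Each of these 4 genes overlapped with control. Irf1 had 31.2, 36.3 and 39.4 CPM, below the lowest control of 41.0 in each liver (-0.28 ± 0.15). Eif2ak2 (15.1, 18.1 and 15.7 CPM, -0.48 ± 0.17) and Oasl1 (6.996, 5.17 and 6.38 CPM, -0.65 ± 0.35) were the other members with all 3 livers below the lowest control.

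Samhd1, Isg15, Stat2, Usp18, Mx1, Ifngr1, Oasl2 and Oas3 had smaller differences from control after hepatectomy than in depleted livers. Those of Trim25, Ifih1, Ifnar1 and Ddx58 were not smaller, and none of these genes was called in either comparison. Samhd1 had 20.1, 17.3 and 23.3 CPM (-0.29). Isg15 had 6.67, 8.14 and 9.80 CPM (-0.18). Both overlapped with control. Stat2 had 49.1, 64.7 and 49.98 CPM (0.18), with replicate 2 above the controls and replicates 1 and 3 among them. For Usp18 the values were 13.6, 9.88 and 18.9 CPM (0.04), within the control range. Mx1 had 0.794, 0.281 and 1.596 CPM (-0.56), with replicates 1 and 2 below the lowest control, and its difference was -0.14 without hepatectomised replicate 2 and -1.39 without hepatectomised replicate 3. The receptor chains Ifngr1 (29.8, 18.2 and 27.6 CPM, 0.16) and Ifnar1 (39.01, 33.7 and 30.8 CPM, -0.35) had ranges that overlapped with control. Oasl2 (4.41, 3.34 and 9.28 CPM, -0.18) and Oas3 (1.499, 0.477 and 2.22 CPM, -0.32) lay within the control range in all 3 livers. Trim25 had 81.7, 87.5 and 71.0 CPM (-0.29), with replicate 2 within the control range and the other 2 below it. Ranges also overlapped for the sensors Ddx58 (27.8, 21.3 and 28.7 CPM, -0.34) and Ifih1 (33.7, 37.3 and 36.2 CPM, -0.35).

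Outside the members and the ligands, 9 of 84 tested genes of the pathway lists were called higher after hepatectomy and 2 lower, where 6.06% of all genes were called higher and 2.36% lower. Socs3, an inhibitor induced mainly by interleukin-6, had 3.14 to 9.65 CPM in controls and 36.4, 199 and 121 in hepatectomised livers (4.29 ± 0.45, adjusted p = 0.000344). Every hepatectomised liver lay above every control. Tnfaip3 (1.36 ± 0.20, adjusted p = 0.00233), the membrane protein Ifitm2 (1.21 ± 0.15, adjusted p = 0.000698) and Zbp1 (1.25 ± 0.30, adjusted p = 0.0224) were also called higher. The genes called lower were the helicase Ddx60 (-1.23 ± 0.25, adjusted p = 0.0126) and Znfx1. In the same livers the summed monocyte and neutrophil markers were 19.5 to 36.9 CPM against 2.79 to 10.6 in controls, with 3 of 6 called higher. Of 4 cholangiocyte markers 2 were called higher, and of 4 B cell markers 1 was called lower. Their part in these differences was not tested. Over the same 84 genes in depleted livers, 59 were called higher and 3 lower, the latter Mavs, Ifitm1 and Lgals9 (18.9% and 15.0% of all genes). Of the 49 tested genes of the list of other interferon-stimulated genes, 35 were called higher in depleted livers and 2 lower. The cytidine deaminase Apobec3 (3.98 ± 0.23, adjusted p = 6.21e-07), the GTPase Ifi47 (3.40 ± 0.23, adjusted p = 1.17e-06) and Slfn1 (5.03 ± 0.37, adjusted p = 2.13e-06) led by adjusted p. Etv7 and Mb21d1 were not found in the table by these symbols.

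Set directly against each other, depleted livers exceeded hepatectomised livers for 30 called members, with 0 called lower, where 13.3% of all genes were called higher and 10.1% lower. With libraries scaled to their total alone, 35 members were called higher, with Ifih1, Stat2, Irf9, Trim25 and Ifi35 added, where 22.4% of all genes were called higher and 4.41% lower. The median was 1.71, against -0.05 for all genes. Ranges lay apart for 33 members, all with depleted livers above (18.1% of all genes; the other direction held 15.9%). The comparison reuses libraries of both comparisons above. Samhd1 (3.58 ± 0.20), Socs1 (3.61 ± 1.06), Oasl2 (3.16 ± 0.41), Ifit2 (3.12 ± 0.50) and Mx1 (2.91 ± 0.58) had the largest differences. That of Socs1 was 6.37 without hepatectomised replicate 2, and was not called without depleted replicate 3 (3.75) or hepatectomised replicate 3 (2.76). Without depleted replicate 3, 20 members were called, and the 10 lost were Ddx58, Dhx58, Ifngr1 (at 0.63), Socs1, Oas1a, Oas2, Rsad2 (at 1.75), Cmpk2, Eif2ak2 and Lgals3bp. Calls over all genes fell as well, from 1837 of 13831 higher with all libraries to 1051 of 13730. Without hepatectomised replicate 3, 7 were lost (Ddx58, Dhx58, Ifngr1, Socs1, Oas1a, Eif2ak2 and Lgals3bp), and without hepatectomised replicate 2, 4 (Ddx58, Ifngr1, Oas1a and Oas2). In these 2 fits 1304 of 14066 and 1444 of 14096 genes were called higher. Ddx58 also lost its call without control replicate 2 or 5 or depleted replicate 1, at 0.59 to 0.68. Oas2 did without depleted replicate 1 or 4 or hepatectomised replicate 1, at 1.29 to 1.55. Ifih1 was called without control replicate 1 or 6 or depleted replicate 2 or 4, at 0.51 to 0.55. A fit of the 2 groups alone ended the calls of Ddx58, Dhx58, Socs1 (4.15), Oas2, Rsad2, Isg20 and Eif2ak2, and 1398 of 13576 genes were called higher in it. With the replicate number as a block, Ddx58 lost its call (0.73). The 9 members not called were Ifih1, Stat2, Irf9, Ifnar1, Trim25, Mx2, Bst2, Ifi35 and Ifi27. Socs3 was lower in depleted than in hepatectomised livers (-1.94 ± 0.49, adjusted p = 0.0143).

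The choice of members named no sex difference, so the 3 male and 3 female controls gave a contrast that could be tested. Socs1 did not pass the filter among controls alone, and 38 members were tested among 13005 genes. Of these, 35 were fitted lower in males and 3 higher, with a median log2 fold change of -0.40 against -0.01 for all genes. After adjustment over all genes, 1 member was called, Ifit1, lower in males; 0.354% of all genes were called lower and 0.384% higher. Ifit1 had 7.88, 8.48 and 4.56 CPM in male control replicates 1, 2 and 6 and 21.7, 19.9 and 16.5 in female replicates 3, 4 and 5. Every male lay below every female, with a difference of -1.48 ± 0.25 and an edgeR adjusted p of 0.044. Among the 3 hepatectomised livers the female had 8.55 CPM and the males 4.59 and 2.39, while the depleted male had 31.9, within the 18.1 to 43.1 of the depleted females. Leaving out control replicate 1, 3, 4 or 5 ended the call of Ifit1, with log2 fold changes of -1.58 to -1.39.

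For 21 of the 38 members every male control lay below every female, and for 0 the reverse, while 10.4% of all genes had ranges apart in each direction (10.4% lower and 10.4% higher in males). An unadjusted p-value under 0.05 was reached by 17 members, all lower in males, and 5.47% of all genes were lower in males at that threshold. Oas3 had 1.26, 1.61 and 0.360 CPM in males and 3.45, 2.52 and 2.53 in females (-1.39 ± 0.50, adjusted p = 0.313). Ifi44 (-1.39 ± 0.45, adjusted p = 0.275), Rsad2 (-1.34 ± 0.39, adjusted p = 0.255) and Cmpk2 (-1.32 ± 0.29, adjusted p = 0.102) came next in size. Ifit2 and Ifit3 followed, at -1.08 ± 0.42 and -1.04 ± 0.25. DESeq2 called 6 members in this contrast, all lower in males, where it called 1.48% of all genes lower. A sex term over all 13 libraries, added after seeing the data, called 0.

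Control replicate 6, a male, was the lowest control for 25 of the 39 members and also had the lowest Kupffer cell marker sum of the controls. The sum of these markers was 52.3 to 336 CPM in males and 363 to 465 in females, so it too was lower in every male than in every female. Clec4f, Vsig4 and Cd5l, 3 of the 6, had ranges apart in the same direction, and the other 3 overlapped. The sum of 6 hepatocyte markers was also lower in every male, at 65500 to 95360 CPM against 96830 to 135700, with Alb and Cps1 below and Apoa1 and Serpina1a above the females in every male. Clec4f had 117, 106 and 20.4 CPM in males and 165, 122 and 139 in females. Leaving out control replicate 6 kept Ifit1 among the calls. Leaving out control replicate 2 raised the called members to 4, with Ddx58 (-0.94), Herc6 (-0.88) and Parp14 (-0.91) added. Female control replicate 3 was the highest control for 17 members. The part of Kupffer cells and hepatocytes in the difference between sexes was not tested. Members near 0 in this contrast were Stat2 (-0.03 ± 0.21), Oas2 (-0.02 ± 0.43) and Trim25 (0.01 ± 0.16), and Ifi35 had the highest fold change in males (0.30 ± 0.18).

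**Figure D4:**
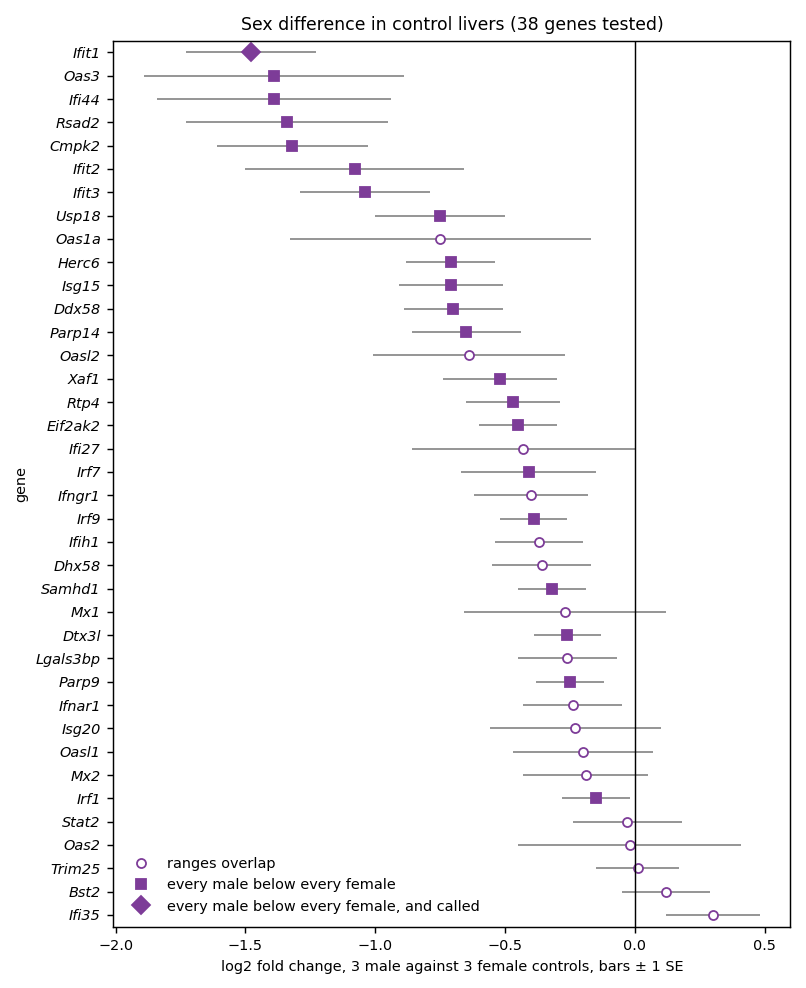
Points are log2 fold changes of 3 male against 3 female control livers for 38 genes, sorted, with bars of 1 SE; filled symbols mark the 21 genes in which every male lies below every female, and the diamond marks Ifit1, the 1 called gene. Of the 38 points 35 lie left of 0.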

How the data were processed

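The authors deposited a table of raw read counts per gene for 13 whole-liver libraries. Per the labels' protocols, RNA was extracted with TRIzol and stranded mRNA libraries were prepared with TruSeq chemistry from 500 ng of RNA and run on 2 lanes. Per the submitters' processing notes, STAR 2.7.1a, SAMtools 1.15.1 and featureCounts 1.6.4 were used with mm10. The settings for strand and multi-mapped reads are not given in the sources used here. Gene symbols and coordinates came from GENCODE M21 (GRCm38), which matched 21818 gene IDs and left 230 unmatched. Of the matched IDs, 99.94% overlapped the same gene.

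Groups, sex and replicate numbers came from the labels. The labels do not say that each library came from a separate animal, and p-values measure the spread between these libraries. No sequencing batch is given, so a batch that followed the groups cannot be told apart from them. Chi-square values between libraries of a group showed no pair within sampling noise, so 13 libraries were used. Counts carry no molecular identifiers, and floors cover counting error only.

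Differences in counts were assessed in R 4.3.3 with edgeR 4.0.16, by its quasi-likelihood method (filterByExpr on group, TMM scaling, robust dispersion, group and sex in 1 model over 13 libraries). Male and female controls were compared in a fit of the 6 controls. P-values were two-sided and adjusted by Benjamini-Hochberg over all genes tested, with a threshold of 0.05. The procedure was tested on simulated data. "Called" means below that threshold, and ranges apart means that CPM values of 2 groups did not overlap. Alternatives were DESeq2 1.42.0, other scaling, no filter on low counts, no sex term, fewer libraries and a block on replicate number.

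The members, the lists of pathway genes and the markers were chosen with earlier results of these data known. Any member may be named. Values of each depleted and hepatectomised library, with the range and median of the 6 controls, were given for the 5 largest and 5 smallest fold changes of each comparison with control and for 14 fixed members, and pathway genes were named from the 3 smallest adjusted p-values of a list and a fixed set. Irf5, Ifitm1, Lgals9, Znfx1, Ifnk, Ifna2 and Trex1 were named after their values were seen. A gene of the pathway lists is not reported here and was left out of their counts.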

Additional observations from a re-analysis of the deposited data

Results flagged for a closer look

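Within groups of 4 to 10 libraries, 6 of 78 gene-by-group sets of CPM values held a library whose gap to its nearest neighbour exceeded Dixon's 95% critical value, where chance gives about 1 in 20, or 3.9. In depleted livers, replicate 1 stood above the other 3 for Ifih1 (66.6 CPM, next 50.4) and Ddx58 (62.8 CPM, next 44.6). Replicate 2 stood below the other 3 for Ifit2 (18.2 CPM, next 33.2) and Oas3 (5.82 CPM, next 12.3). Among controls, replicate 6 stood below the rest for Irf7 (24.6 CPM, next 46.8), and replicate 3 above the rest for Mx2 (9.49 CPM, next 6.87).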

How the results depend on the processing

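No fold change of a called member changed sign under any alternative. In depleted against control livers, the count of called members was 31 with the replicate number as a block and 23 in female libraries alone, 32 under the other alternatives, and 26 to 32 with 1 library left out. The count of 26 was that without depleted replicate 3, where 1786 of 13730 genes were called higher, against 2614 of 13831 with all libraries. Over all members and the alternatives other than leaving out a library, 302 of 312 calls kept their side of the threshold and 10 were lost. In hepatectomised against control livers, 0 members were called, whereas DESeq2 called 2, scaling to library size alone 7, a fit of the 2 groups alone 1 and the replicate block 1. The last 2 fits both called Ifit1. Leaving out 1 library gave 0 to 3. In depleted against hepatectomised livers the count was 30, with 20 to 31 when 1 library was left out, 23 in a fit of the 2 groups alone, 29 with the replicate block, 35 with library size alone, and 31 with DESeq2 or without the sex term. The median there moved from 1.71 to 2.06 with library size alone and to 1.42 without depleted replicate 3. Between male and female controls 1 member was called, 6 by DESeq2, 0 by the sex term over all 13 libraries, and 0 to 4 with 1 library left out. The cause of these differences was not tested. The deviations of same-numbered libraries had a mean r across genes of 0.12 for depleted and control (-0.1 to 0.42), -0.05 for hepatectomised and control (-0.19 to 0.08) and 0.16 for depleted and hepatectomised (0.04 to 0.27, against -0.05 for different numbers). In each comparison at least 1 pair was below 0.1, so the numbers were not taken to pair the livers. Depth limits Ifng in controls and the other ligands, at or below 3 counts per library in controls.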
